A study of Rattus norvegicus with 6 samples.

Results

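miR-101a and miR-101b are a pair of paralogous miRNAs, cut from separate hairpins and nearly identical in their 3p products. They were followed here in 6 small RNA libraries of RSC96 cells, a rat Schwann cell line, sequenced after 48 h in high glucose (3 libraries) or in low glucose as the control (3 libraries). The members were the 2 hairpins named rno-mir-101a and rno-mir-101b, of 821 hairpins in the files, and every sequence listed under either name was counted. That gave 103 distinct sequences of 9522 in all, and they fell on 2 of the 932 mature arms with counts. RSC96 is a spontaneously immortalised line, and the labels give this line for all 6 libraries. The series title concerns exosomes, the extraction text in the labels names the retina, and the labels do not say whether vesicles or whole cells were used or give the glucose concentrations.

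A miRNA hairpin is trimmed to a short duplex, of which mostly a single arm is kept, and bases 2 to 8 of that arm, the seed, select the mRNAs it represses. Because the seed is counted from the 5′ end, a start moved by 1 base gives another seed. miR-101 is known in human cells as a repressor of EZH2, the enzyme of Polycomb repression that methylates histone H3, and of the survival protein MCL1. In mouse Schwann cells Polycomb repression is known to keep injury genes silent.

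The RefSeq mature sequences of the 3p arms are shown because everything listed came from these arms. Capitals mark the seed.
rno-miR-101a-3p: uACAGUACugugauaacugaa
rno-miR-101b-3p: uACAGUACugugauagcugaa
Both are 21 nt long, and the sequences differ by A16G, counted from the 5′ end with the miR-101a base first, so the seed is the same. No other rat mature miRNA among the 724 in the RefSeq table has this seed. In RefSeq's GRCr8 assembly the 75 nt hairpin of miR-101a lies at chr5:121081683-121081757 on the minus strand, within the span of the lncRNA gene LOC120102934 on the same strand. The 97 nt hairpin of miR-101b (symbol Mir101-2) lies at chr1:236273922-236274018 on the plus strand, within the span of Rcl1 on the same strand, a protein-coding gene needed for ribosomal RNA processing. Both hairpin sequences in the deposited files are identical to these RefSeq hairpins.

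The leading sequences of each arm are shown next, because they differ at both ends. They are written as in the files, with T, and with their own bases 2 to 8 in capitals.
miR-101a-3p, 21 nt, start 1 base early: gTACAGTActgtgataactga
miR-101a-3p, 22 nt, start 1 base early: gTACAGTActgtgataactgaa
miR-101a-3p, 22 nt, RefSeq start: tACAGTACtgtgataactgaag
miR-101a-3p, 22 nt, RefSeq start, last base G22A: tACAGTACtgtgataactgaaa
miR-101b-3p, 22 nt, RefSeq start: tACAGTACtgtgatagctgaag
miR-101b-3p, 21 nt, start 1 base early: gTACAGTActgtgatagctga
miR-101b-3p, 23 nt, RefSeq start, last base A23T: tACAGTACtgtgatagctgaagt
In G22A and A23T the hairpin's base comes first, then the position in the sequence from its 5′ end, then the base read. The early start puts a templated G in front and turns the seed into UACAGUA, which no mature miRNA in the RefSeq table has.

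Library depth differed between the groups and cannot be told apart from them. The high glucose libraries held 963706 to 1354456 counts and the low glucose libraries 114615 to 148143, a 9.31-fold difference between the group means. Of 297 arms with enough counts to be tested, 123 were higher and 67 lower in high glucose. As to markers, the Schwann and nerve list summed to 174075 to 247366 TMM-scaled CPM (counts scaled to a common library size of 1000000) in high glucose, against 397782 to 495921 CPM in low glucose, with 5 of 5 members listed. That sum was mostly miR-21-5p, at 173417 ± 34971 CPM in high glucose, against 420781 ± 51108 CPM in low glucose (SD, n = 3 each). By edgeR's test miR-21-5p and miR-146b-5p were lower, miR-221-3p and miR-222-3p higher, and miR-9a-5p was not called. The erythroid list (5 of 5 listed) summed to 925 to 1052 CPM in high glucose, against 3739 to 6655 CPM in low glucose, the liver list (3 of 3) to 9192 to 15577 and 3197 to 4693 CPM, and the neuronal list (4 of 5) to 15232 to 21407 and 5647 to 7721 CPM with miR-124-3p at 0. Of their tested members, 3 of 3 erythroid ones were called lower and 2 of 2 liver ones higher. The neuronal sum was mostly miR-128-3p, called higher with miR-129-5p, while miR-218a-5p was called lower, at 935 ± 215 CPM in high glucose, against 4644 ± 486 CPM in low glucose. The leukocyte list (3 of 4), with miR-142-3p at 0, summed to 20.5 to 90.1 CPM in high glucose, against 48.7 to 89.6 CPM in low glucose. The retinal list (3 of 5), with miR-182-5p and miR-96-5p at 0, summed to 57.2 to 72.8 and 48.7 to 89.6 CPM. Its only tested member, miR-183-5p, was called lower by edgeR but not by DESeq2, at 18.7 ± 3.29 CPM in high glucose, against 59.3 ± 27.8 CPM in low glucose. The untested miR-211-5p stood at 38.7 ± 20.8 and 4.64 ± 8.04 CPM. The part of depth and of these markers in the results on miR-101 was not tested.

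Setting high against low glucose asks which miRNAs changed with the glucose level. Both miR-101 3p arms fell in high glucose, to means of 1457 CPM for miR-101a-3p and 1378 CPM for miR-101b-3p. miR-101a-3p stood at 1318, 1747 and 1307 CPM in the high glucose libraries, against 2841, 3371 and 2991 CPM in the low glucose libraries. All high glucose libraries lay below all low glucose ones, with high glucose replicate 2 nearest to them. Its mean was 1457 ± 251 CPM in high glucose, against 3068 ± 273 CPM in low glucose (SD, n = 3 each), which is 2.11-fold lower (log2 fold change -1.07, SE 0.18, adjusted p = 0.00136 by edgeR's quasi-likelihood test with Benjamini-Hochberg adjustment). In bulk RNA, fewer cells that express a miRNA and less of it per cell cannot be told apart.

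miR-101b-3p stood at 1265, 1506 and 1362 CPM in the high glucose libraries, against 2326, 2741 and 2633 CPM in the low glucose libraries. Here too the groups did not overlap, and replicate 2 was the highest of each group. The means were 1378 ± 121 CPM in high glucose, against 2567 ± 216 CPM in low glucose (SD, n = 3 each), which is 1.86-fold lower (log2 fold change -0.90, SE 0.16, adjusted p = 0.00177 by edgeR). Both tested arms of the pair were thus called lower, where 22.6% of all tested arms were, and both had separate groups, where 25.9% of tested arms had all high glucose libraries below the low glucose ones and 45.8% had them above. Over all 297 tested arms the median log2 change was 0.68, and 52 arms were as low as miR-101a-3p or lower.

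**Figure D1:**
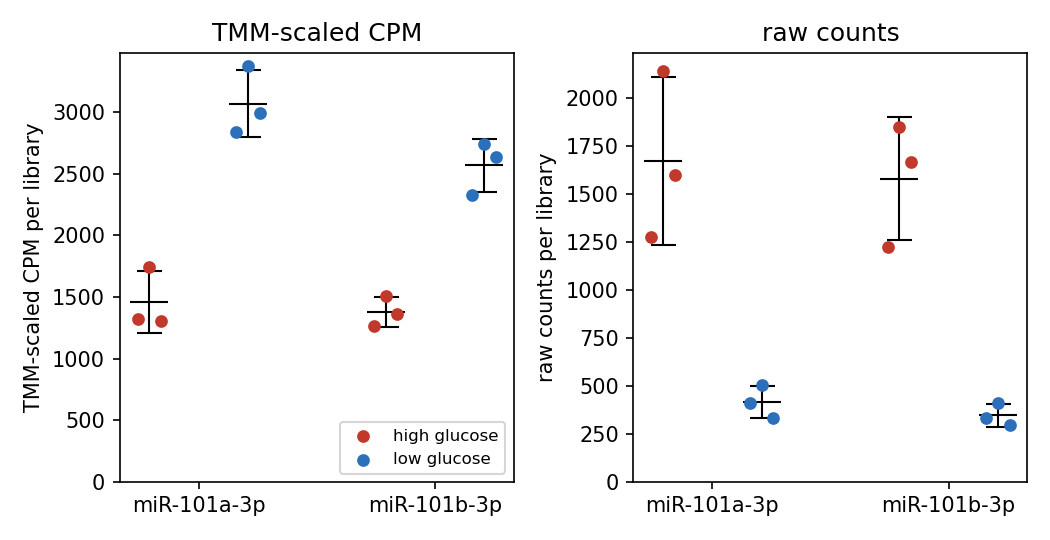
Levels of miR-101a-3p and miR-101b-3p in each library, as TMM-scaled CPM (left) and as raw counts (right). Points are libraries and bars are the mean ± SD of 3. In CPM the high glucose points, at 1265 to 1747, lie below all low glucose points, while in raw counts they lie above them.

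The fall was in the share of the library, not in raw counts. Raw counts of miR-101a-3p were 1273, 2139 and 1597 in high glucose, against 408, 503 and 334 in low glucose, a high-to-low ratio of means of 4.02. Those of miR-101b-3p were 1222, 1844 and 1664 in high glucose, against 334, 409 and 294 in low glucose, a ratio of means of 4.56. Both ratios are smaller than the 9.31-fold difference in depth. As a percentage of all counts, miR-101a-3p made up 0.139% of a high glucose library on average and 0.320% of a low glucose library, and miR-101b-3p 0.131% and 0.268%. Scaling by upper quartiles moved the median of all tested arms by -0.56 on the log2 scale, and miR-101a-3p from -1.07 to -1.66. Relative to that median miR-101a-3p was at -1.76 with the main scaling and -1.78 with upper quartiles.

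**Figure D2:**
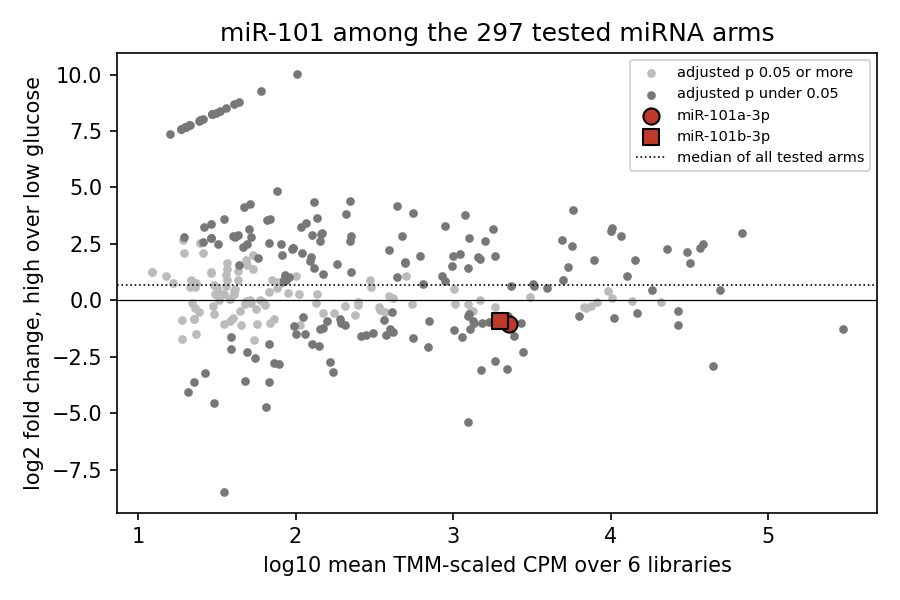
Each point is 1 of the 297 tested miRNA arms, with its log10 mean CPM over the 6 libraries on the x axis and its log2 fold change, high over low glucose, on the y axis. Dark points passed the edgeR test at 0.05, the dotted line is the median of 0.68, and the row of points at the upper left holds arms listed at 0 in low glucose. miR-101a-3p and miR-101b-3p lie beside each other below 0.

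Within the miR-101 pair the paralogs were at near-equal levels. miR-101b made up 49.0%, 46.3% and 51.0% of the miR-101 3p counts in the high glucose libraries, against 45.0%, 44.8% and 46.8% in the low glucose libraries. The groups overlapped, and the difference of means of 3.21 percentage points had an exact two-sided permutation p of 0.2, where 3 against 3 libraries allow no p under 0.1. With every library thinned to the smallest, the difference was -1.59 percentage points, and with exact alignments only it was 0.424 points. The assignment to a paralog rests on a single base, and the 23 nt sequence with 101 counts that reads G23A on miR-101a and G16A on miR-101b had its reads divided in equal parts between the hairpins in the deposited counts. Such shared sequences held 0.655% to 3.89% of an arm's counts.

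No sequence of either 5p arm was listed in any of the 6 libraries. The 5p arms differ between the paralogs at 5 positions of 22 in RefSeq. Since sequences seen in 1 read are not listed, a listed 0 gives no upper limit. Of the 85 annotated miRNAs with 1000 or more counts in all, 59 had counts on both arms and 26 on 1 arm only, among them miR-101a with 6254 and miR-101b with 5767 counts. Of the 47 miRNAs with at least as many counts as miR-101a, 14 had 1 arm only.

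The 5′ start of miR-101 varied. For miR-101a-3p, sequences that started 1 base before the RefSeq start made up 51.3%, 49.9% and 47.2% of the counts in high glucose, against 43.9%, 43.1% and 41.0% in low glucose. Nearly all other counts began at the RefSeq start, so the 2 seeds were carried by shares of similar size. All sequences shifted from the RefSeq start together made up 50.3% ± 2.67 in high glucose, against 42.8% ± 1.56 in low glucose (SD, n = 3 each). The groups did not overlap, with an exact permutation p of 0.1, the smallest the design allows. This separation was common: 32.8% of the 64 abundant arms that could be placed on a RefSeq start had it in the same direction. After thinning, the difference was 4.51 percentage points, against 7.46 without it.

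For miR-101b-3p the early start made up 25.5%, 30.3% and 26.1% of the counts in high glucose, against 27.8%, 29.6% and 27.9% in low glucose. The groups overlapped, and the means of 27.3% ± 2.63 and 28.4% ± 0.991 gave an exact permutation p of 0.6. Later starts, 1 or more bases inside the mature sequence, held 10.9%, 10.8% and 3.67% of miR-101b-3p counts in high glucose, against 6.59%, 3.18% and 5.78% in low glucose. They varied more between the high glucose libraries than between the groups. In miR-101a-3p they reached at most 1.54%, in high glucose replicate 2.

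**Figure D3:**
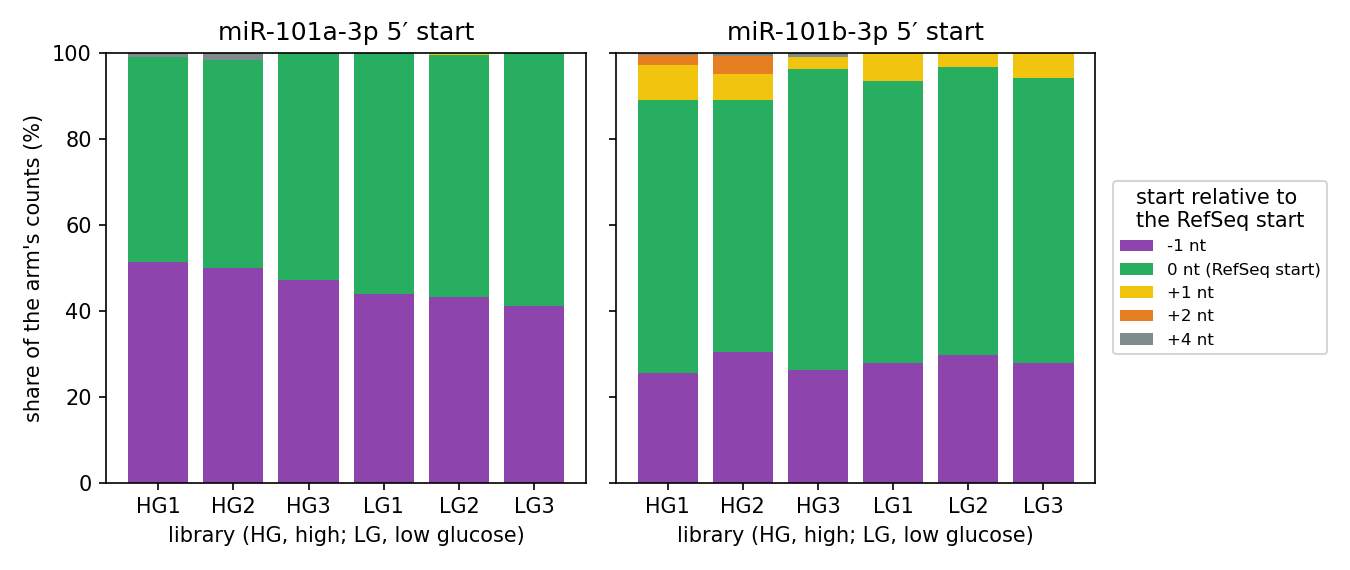
Share of the counts of miR-101a-3p (left) and miR-101b-3p (right) by 5′ start, in nt from the RefSeq start, for each high glucose (HG) and low glucose (LG) library. The early start takes 41.0% to 51.3% of miR-101a-3p and 25.5% to 30.3% of miR-101b-3p.

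The early start was commoner in miR-101a-3p than in miR-101b-3p within each of the 6 libraries, at 46.1% ± 4.05 against 27.9% ± 1.88 of counts (SD, n = 6). The difference of 18.2 percentage points had an exact paired permutation p of 0.0312, the smallest that 6 pairs allow (adjusted over 6 such comparisons, also 0.0312). The 6 comparisons were chosen after the values were seen, so these p-values add no support beyond the values. The G in front of the RefSeq start is templated in both hairpins. Among the 74 annotated arms with 50 or more counts in every library, the commonest start held a median of 98.2% of counts. It held 53.5% in miR-101a-3p and 65.3% in miR-101b-3p, the second and the fifth lowest shares of the 74.

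**Figure D4:**
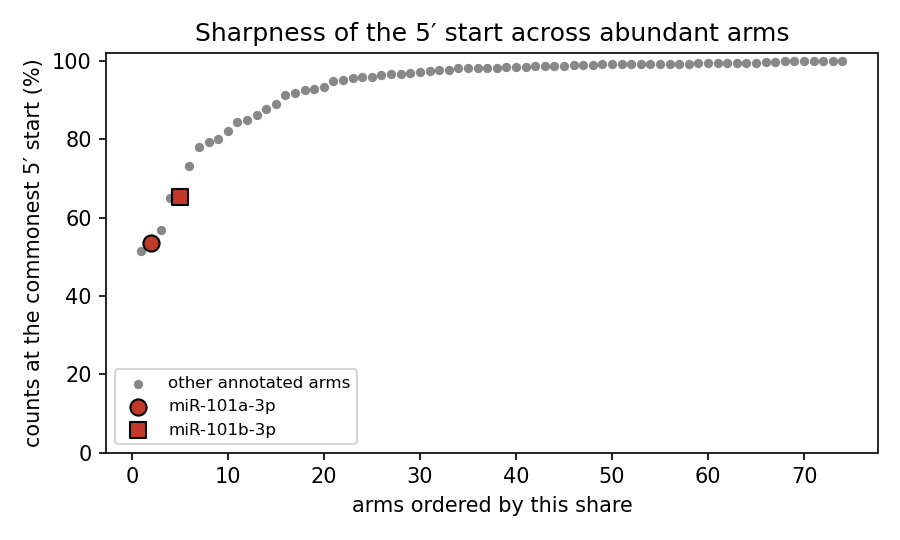
The 74 annotated arms with 50 or more counts in every library, ordered by the percentage of their counts at the commonest 5′ start, averaged over the 6 libraries. Most lie above 90%, and miR-101a-3p at 53.5% and miR-101b-3p at 65.3% lie at the low end.

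At the 3′ end, miR-101a-3p was shorter in high glucose. Its mean sequence length was 21.1, 21.2 and 21.3 nt in the high glucose libraries, against 21.6, 21.6 and 21.7 nt in the low glucose libraries. The groups did not overlap, and the means of 21.2 ± 0.110 and 21.6 ± 0.0387 nt (SD, n = 3 each) had an exact permutation p of 0.1. A shorter mean in every high glucose library was found in 36.5% of the 74 abundant arms, whose median difference was -0.070 nt against -0.39 nt for miR-101a-3p, the 12th largest fall. Sequences that ended beyond the RefSeq end made up 29.4% ± 2.79 of its counts in high glucose, against 43.5% ± 0.730 in low glucose (SD, n = 3 each), and those that ended before it 42.5% ± 4.28 and 27.2% ± 1.20. Both shares had separate groups, as 21.9% and 42.2% of 64 abundant arms did in the same directions. The share beyond the RefSeq end includes sequences with a mismatched final base. Among them was that with G22A, at 8.60% ± 1.64 in high glucose and 7.58% ± 0.812 in low glucose.

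The leading sequences of miR-101a-3p differed too. The 21 nt early-start sequence, the most abundant of miR-101a-3p, held 25.5%, 27.3% and 21.3% of its counts in high glucose, against 16.9%, 15.9% and 16.8% in low glucose. The 22 nt sequence from the RefSeq start, which ends in a templated G, had 153, 244 and 203 counts in high glucose, against 93, 127 and 80 in low glucose, that is 11.4% to 12.7% against 22.8% to 25.2% of the arm. The groups did not overlap for either sequence (exact permutation p = 0.1 each). For their most abundant sequence, as the 21 nt one is here, 58.1% of the 74 abundant arms had such a separation, in either direction. How common it is in lower-ranked sequences, such as the 22 nt one, was not tested. The sequence in first place was the 21 nt one in each high glucose library and the 22 nt one in each low glucose library. A fit on the most abundant sequence of each arm put miR-101a-3p at -0.34 on the log2 scale (adjusted p = 0.302 by edgeR). That sequence was chosen by counts summed over the 6 libraries, most of which come from the deeper high glucose libraries. For miR-101a-3p it is the leader in high glucose only, so this fit cannot stand for the whole arm. The 22 nt early-start sequence held 14.2% ± 2.27 in high glucose, against 17.5% ± 1.54 in low glucose (SD, n = 3 each), with overlapping groups. The 21 nt RefSeq sequence itself, rank 4 in the arm, was at 12.3% ± 0.418 in high glucose, against 9.26% ± 1.67 in low glucose. The sequence with G22A held 8.60% ± 1.64 in high glucose, against 7.58% ± 0.812 in low glucose, and its groups overlapped.

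Sequences with the early start also ended earlier in both arms. In miR-101a-3p, sequences with the early start ended beyond the RefSeq end in 4.63% ± 2.26 of counts in high glucose, against 8.65% ± 2.46 in low glucose, and those with the RefSeq start in 53.1% ± 3.70 and 69.7% ± 2.07 (SD, n = 3 each). Their mean lengths were thus close, at 21.2 and 21.3 nt in high glucose, against 21.5 and 21.7 nt in low glucose. For both starts the high glucose libraries were all shorter than the low glucose ones, and the share beyond the RefSeq end had separate groups for the RefSeq start but overlapping ones for the early start. How common such separations by start are in other arms was not tested. In miR-101b-3p, 12.9% ± 3.29 of early-start counts ended beyond the RefSeq end in high glucose, against 16.05% ± 6.68 in low glucose, and 79.7% ± 4.11 of counts from the RefSeq start did, against 86.0% ± 6.11. Early-start sequences of miR-101b-3p were also shorter in all high glucose libraries, at 21.3 ± 0.139 nt, against 21.6 ± 0.206 nt in low glucose. Those from its RefSeq start had overlapping lengths.

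In miR-101b-3p the leading sequence, 22 nt from the RefSeq start, held 21.4%, 18.9% and 20.7% of the counts in high glucose, against 26.6%, 31.1% and 26.2% in low glucose. The groups did not overlap (exact permutation p = 0.1), again beside 58.1% of the abundant arms. Fitted on the most abundant sequence only, miR-101b-3p was at -1.24 on the log2 scale (adjusted p = 0.00116 by edgeR), against -0.90 for the whole arm. As this sequence's share of the arm differed between the groups, this fit cannot stand for the whole arm either. The 21 nt early-start sequence held 14.6% ± 3.44 in high glucose, against 11.0% ± 1.62 in low glucose (SD, n = 3 each), and that with A23T 10.9% ± 2.88 and 9.04% ± 1.87, both with overlapping groups. The 22 nt early-start sequence of miR-101b-3p was lower in all high glucose libraries, at 4.10% ± 0.467 of counts, against 8.34% ± 0.793 in low glucose. How common such a separation is in sequences below the leading one of other arms was not tested. The 21 nt RefSeq sequence held 3.23% ± 2.17 in high glucose, against 2.94% ± 0.866 in low glucose. Sequences that ended before the RefSeq end made up 24.4%, 33.8% and 26.9% in high glucose, against 24.3%, 22.0% and 15.0% in low glucose, and the groups were separate by a narrow margin, where 42.2% of 64 abundant arms had a separation in this direction. Mean length was 21.7 ± 0.148 nt in high glucose, against 21.9 ± 0.146 nt in low glucose, also with overlapping groups (exact permutation p = 0.2).

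**Figure D5:**
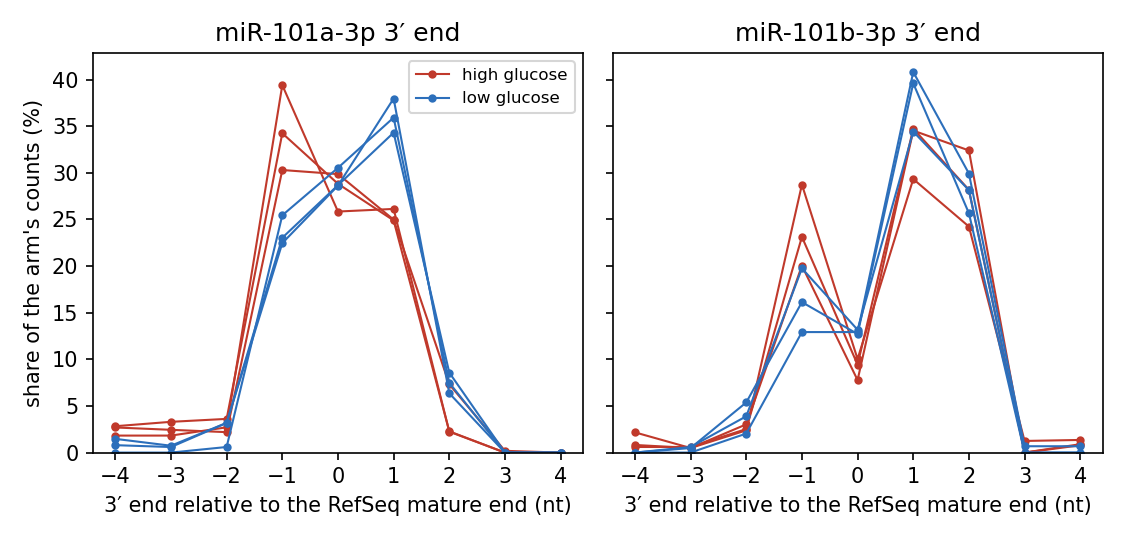
Share of the counts of miR-101a-3p (left) and miR-101b-3p (right) by 3′ end, in nt from the RefSeq end, with 1 line per library. For miR-101a-3p the high glucose lines are higher at 1 base before the RefSeq end and lower at 1 base beyond it, and miR-101b-3p has its main end 1 base beyond the RefSeq end in all 6 libraries.

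Added or changed bases differed between the paralogs. A mismatch to the hairpin was carried by 20.7% ± 2.17 of miR-101a-3p counts and 31.7% ± 6.39 of miR-101b-3p counts over the 6 libraries, and miR-101b-3p was higher in all 6 (exact paired permutation p = 0.0312). This comparison too was chosen after the values were seen. A final T, the way an added U is read, was mismatched in 4.53% ± 1.45 of miR-101a-3p counts and 16.1% ± 4.71 of miR-101b-3p counts. A final A was commoner in miR-101a-3p, at 13.2% ± 1.59 against 10.1% ± 2.12, again in all 6 libraries. The miR-101a share includes the shared G23A sequence, which on miR-101b counts as an internal mismatch. That sequence held 1.41%, 2.19% and 3.29% of miR-101a-3p counts in high glucose replicates 1 and 3 and low glucose replicate 3. In these libraries this was more than the gap between the paralogs, and in the remaining ones less. Base 23 from the RefSeq start is G in the miR-101a hairpin and A in the miR-101b hairpin, so an A added there is a mismatch in miR-101a only. Enzymes that add U or A to miRNA ends are known.

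Between the groups, the mismatched share of miR-101a-3p was 17.3%, 19.3% and 20.7% in high glucose, against 23.3%, 22.5% and 21.0% in low glucose. The groups lay apart by a narrow margin (exact permutation p = 0.1), as they did in 28.4% of the 74 abundant arms in this direction. The difference was -3.15 percentage points, and -6.85 after thinning. For miR-101b-3p it was 41.4%, 29.2% and 31.9% in high glucose, against 25.7%, 25.2% and 36.7% in low glucose, and the groups overlapped. High glucose replicate 1 held the highest share of a final T in miR-101b-3p, at 25.1%, while the other 5 libraries held 13.0% to 17.7%. Over the whole arms, 29 such measures were compared between the groups and adjusted together, and the lowest adjusted permutation p was 0.242. The comparisons of single sequences below the leading one, and those split by start, were not among the 29 and were not adjusted.

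Mismatches inside the sequence were rare, at 24 of 6254 counts of miR-101a-3p and 242 of 5767 of miR-101b-3p. Of these 242 counts, 101 belonged to the shared sequence that reads G16A. Of the 42 distinct sequences of miR-101a-3p 11 were listed in all 6 libraries, and of the 63 of miR-101b-3p 12 were. A further 17 and 36 were listed in high glucose only, with at most 13 and 29 counts in a library, and 5 and 7 in low glucose only. How many of all 9522 distinct sequences were so listed was not counted, and the high glucose libraries were 9.31-fold deeper. Without thinning, miR-101a-3p had 21, 26 and 22 distinct sequences in high glucose, against 20, 23 and 12 in low glucose. When all libraries were thinned to 114497 reads, it had 14, 15 and 13 in high glucose, against 18, 20 and 12 in low glucose. For miR-101b-3p the numbers were 30, 40 and 30 in high glucose, against 18, 18 and 19 in low glucose, without thinning. After thinning miR-101b-3p had 13, 19 and 14 in high glucose, against 18, 16 and 19 in low glucose, so the groups overlapped.

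The miRNAs with the most similar pattern over the 6 libraries were sought among 197 other annotated arms, by the Euclidean distance of log2 CPM centred on each arm's mean. For miR-101a-3p the nearest was miR-1839-5p (distance 0.19), then its paralog miR-101b-3p (0.31) and miR-378a-3p (0.39). miR-1839-5p was at 1011 ± 179 CPM in high glucose, against 2032 ± 277 CPM in low glucose (SD, n = 3 each). For miR-101b-3p they were miR-378a-3p (0.28), at 1814 ± 256 CPM in high glucose, against 3603 ± 78.6 CPM in low glucose, then miR-466c-5p (0.31) and miR-101a-3p (0.31). The paralogs were thus among each other's 3 nearest patterns, though neither was the other's nearest.

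Other miRNAs known to repress EZH2 moved in both directions. Of the 16 on the list, 13 were listed and 11 tested, of which 6 were higher and 3 lower, with a median log2 fold change of 1.16 beside 0.68 for all tested arms. Of all tested arms 41.4% were higher. With upper quartile scaling the list had 5 higher and 5 lower members. The let-7 sequences are near-identical, so reads may be split among them. let-7c-5p, the most abundant and most changed member, was at 121716 ± 21201 CPM in high glucose, against 15287 ± 1125 CPM in low glucose (SD, n = 3 each). let-7b-5p was at 64807 ± 14476 and 11588 ± 218 CPM, and let-7a-5p, the second most changed, stood at 2.84 on the log2 scale (SE 0.26, adjusted p = 7.64e-05 by edgeR). The lower members were let-7g-5p, let-7i-5p and miR-26b-5p, the last at 338 ± 19.8 CPM in high glucose, against 484 ± 11.0 CPM in low glucose (adjusted p = 0.0413 by edgeR, not called by DESeq2). miR-26a-5p was at -0.30 on the log2 scale (adjusted p = 0.112 by edgeR).

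A pair of other miRNAs come close to the miR-101 seed, and are shown from RefSeq with their own seeds in capitals.
rno-miR-144-3p: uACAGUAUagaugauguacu
rno-miR-199a-3p: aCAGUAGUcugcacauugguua
miR-144-3p, an erythroid miRNA, differs from miR-101 at 1 seed base, and miR-199a-3p, a miRNA of mesenchymal cells, holds the first 6 of the 7 seed bases starting at its first base. miR-144-3p had 2, 4 and 16 counts in high glucose, against 2, 0 and 8 in low glucose, too few to be tested. miR-199a-3p was at 98.3, 40.8 and 41.7 CPM in high glucose, against 139, 121 and 143 CPM in low glucose, which is -1.16 on the log2 scale (SE 0.43, adjusted p = 0.0457 by edgeR, not called by DESeq2). The groups did not overlap.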

How the data were processed

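Each deposited table lists every distinct read sequence of a library once per matching hairpin, with its raw count, position and mismatches, per the file headers. Cutadapt 1.9.3 and Novoalign 3.02.12 appear, without roles, in the submitters' processing notes. Neither genome build nor hairpin release is named in the sources used here. Tested on the files, listed sequences have at least 2 reads and at most 1 mismatch, so rare sequences are lost most in the shallow low glucose libraries. Where several hairpins match a sequence, its count is already divided among them.

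Counts were summed per arm, from whether a sequence is centred before or after the middle of its hairpin, with hairpin copies joined. Of all 932 arms, the 297 that passed filterByExpr with a minimum count of 10 were fitted together with edgeR 4.0.16 in R 4.3.3. The fit used TMM scaling, a robust quasi-likelihood test and Benjamini-Hochberg adjustment at 0.05, and was first tested on simulated data. CPM are TMM-scaled, log2 CPM used a prior count of 2, and each SE was obtained as the log2 change over the root of the F statistic. Shares and lengths were compared between groups by exact two-sided permutation tests (SciPy 1.17.1), and between the paralogs within libraries by exact paired ones, which were added after the values were seen. DESeq2 1.42.0 was an alternative, and thinning drew reads down to the smallest library once with a fixed seed.

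Starts and ends are relative to RefSeq mature sequences (GRCr8 table), and 64 of 74 abundant arms could be matched. A mismatched final base counts as part of the sequence when its end is placed. Named were all miR-101 arms, the 3 leading, leading shifted and leading mismatched sequences of each, the 3 most similar arms, and listed miRNAs. Given outside this rule were the RefSeq sequence of each arm, the longer early-start sequence of miR-101b-3p and the sequence shared by both hairpins. The members and lists were chosen with earlier results of these data known. Every pair of replicates differed beyond sampling noise (chi-square per degree of freedom 4.19 to 101). Whether they were separate cultures is not stated in the labels. The p-values thus reflect only how far these libraries vary, possibly for technical reasons. Reads carry no molecular identifiers in these files.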

Additional observations from a re-analysis of the deposited data

How the results depend on the processing

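Both miR-101 3p arms were lower in high glucose under every alternative tried: other scalings, filters, DESeq2, exact alignments, annotated hairpins, thinning, sequences listed under 1 hairpin only (added after seeing the data), and each library left out. The call of miR-101a-3p was lost in the fit on each arm's most abundant sequence, at -0.34 on the log2 scale (edgeR adjusted p = 0.302). That sequence was chosen by counts summed over all libraries, and for miR-101a-3p it leads in high glucose only. Leaving out a library gave -1.29 to -0.85 for miR-101a-3p and -1.03 to -0.69 for miR-101b-3p, with adjusted p up to 0.0185 and 0.0232. The size of the fall depended on the scaling. Beside -1.07 and -0.90 in the main fit, upper quartile scaling gave -1.66 and -1.48, and thinning -1.20 and -1.29. Of all arms, 190 were called, of which 64.7% were higher. Without a library 137 to 171 were called, 123 of 201 tested with annotated hairpins only, and 126 of 166 after thinning, of which 52.4% were higher. Upper quartile scaling gave 49.5% higher.

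With the replicate number as a block, 162 arms were called, and miR-101a-3p stood at -1.08 and miR-101b-3p at -0.90, both still called. Same-numbered libraries did not deviate together (r = 0.0449, -0.000712 and -0.0285), and not every library correlated best with its own number.

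The share of miR-101b among miR-101 3p counts, 3.21 percentage points higher in high glucose, was -1.59 after thinning, in a single draw, 0.424 with exact alignments only, and 2.08 to 4.44 with a library left out. The share of shifted miR-101b-3p starts, 2.14 points higher, ranged from -0.55 to 5.12, the lowest without high glucose replicate 2. The differences in leading sequence, start, mismatches and length of miR-101a-3p, and in the leading sequence of miR-101b-3p, kept their direction. Thinning moved the mismatched share of miR-101a-3p to -6.85 points, against -3.15, and its shifted starts to 4.51 points, against 7.46. The 5p arms had no counts, so they were not fitted. Depth limits the low glucose libraries most, with 294 to 503 counts per arm.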
